A study of Mus musculus with 18 samples.

Results

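Glutamate receptors and the scaffold proteins that hold them at the postsynaptic density were followed as 35 genes in peritumoral brain from 3 mouse models of brain metastasis. The genes were chosen by name, as 22 receptor subunits and receptors (4 AMPA, 5 kainate, 1 delta, 6 NMDA and 6 metabotropic) and 13 scaffolds (4 of the PSD-95 family, 3 SAPAP, 3 SHANK and 3 HOMER). All 35 were found by symbol among the 55416 gene IDs of the count table and in the CPM table, and all 35 passed the filter on low counts. Poly(A)+ RNA was sequenced from the area resected around tumours of 18 brains, 6 per model, taken at day 10 after injection of 40000 cells. The melanoma model was made with B16-F10-BrM4 cells, the lung cancer model with 482N1 cells and the breast cancer model with EO771-BrM3 cells, each a mouse tumour line, and all mice carried the genotype label WT. Every brain thus held a tumour, no tumour-free brain was compared, and each model rests on 1 tumour line. The comparisons ask how the tissue around the metastasis differs with the model. Libraries are named here by model and library number, numbers 1 to 6 being melanoma, 7 to 11 and 13 lung, and 14 to 19 breast.

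At excitatory synapses glutamate opens AMPA receptors, which carry the fast current, and NMDA receptors, which admit calcium when the cell is also depolarised, while kainate, delta and metabotropic receptors tune transmission more slowly or from other sites. Beneath the membrane, PSD-95 family proteins bind the tails of NMDA receptors and of AMPA receptor auxiliary subunits, SAPAP proteins link them to SHANK proteins, and HOMER proteins tie SHANK to group I metabotropic receptors. In brain these genes are read mainly in neurons, although some, such as Grm3, are also strongly expressed in astrocytes.

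Of the 35 members, 4 differed among the 3 models: Homer3, Dlg1, Grik2 and Grm8. Homer3 was highest in the lung model and lowest in the breast model, and Dlg1 was lower in the breast than in the lung model. Grik2 was higher in the melanoma model than in both others, and Grm8 was higher in melanoma than in breast. Neither call of Grik2 was kept when the trend on transcript length was removed. The 4 are 11.4% of the members, where 35.8% of the 17174 genes tested were called (edgeR's quasi-likelihood F test, Benjamini-Hochberg adjusted p under 0.05). Most members instead moved together from library to library, within each model, over ranges wider than the differences between models. They did so along with pan-neuronal genes and with the share of long transcripts that a library held.

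The starts of these 4 genes are shown because their levels differed while those of their family members were not called: the 150 bases upstream of the first start that RefSeq (GRCm38.p6) lists for each, with GC boxes (GGGCGG on either strand) and E-boxes (CACGTG) in capitals.
Homer3, chr8:70282849-70282998, plus strand: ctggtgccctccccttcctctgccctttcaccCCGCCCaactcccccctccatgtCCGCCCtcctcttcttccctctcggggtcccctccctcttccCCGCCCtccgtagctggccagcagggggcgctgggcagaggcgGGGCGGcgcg
Dlg1, chr16:31663785-31663934, plus strand: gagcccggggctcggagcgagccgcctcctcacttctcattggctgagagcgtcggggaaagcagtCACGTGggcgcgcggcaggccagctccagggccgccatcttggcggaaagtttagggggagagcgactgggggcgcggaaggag
Grik2, chr10:49788755-49788904, minus strand: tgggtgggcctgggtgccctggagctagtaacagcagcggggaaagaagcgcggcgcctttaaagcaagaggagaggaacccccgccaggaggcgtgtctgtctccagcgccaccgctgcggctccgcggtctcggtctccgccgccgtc
Grm8, chr6:28135147-28135296, minus strand: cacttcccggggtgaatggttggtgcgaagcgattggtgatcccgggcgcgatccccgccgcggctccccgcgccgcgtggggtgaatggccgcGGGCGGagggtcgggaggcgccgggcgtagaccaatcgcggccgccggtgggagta
The Homer3 window held 4 GC boxes, that of Grm8 1 GC box, that of Dlg1 1 E-box, and that of Grik2 neither motif. Within 250 bases upstream, a GC box lay in 32.7% and an E-box in 6.02% of all 32851 RefSeq mouse promoters, against 16 and 4 of the 37 promoters listed for 23 members. A CRE (TGACGTCA), an EGR site (GCGGGGGCG) and an AP-1 site (TGANTCA) lay in 0, 1 and 1 of these 37, and in 1.55%, 2.57% and 6.75% of all promoters. None of these motifs contains another. Dlg1 and Grm8 have 4 and 3 listed starts, and the counts do not tell which was used.

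Library totals ran from 7366250 to 14533877 counts, and the members took 0.205% to 0.606% of them, so that every member was well above the floor of 3 counts (0.206 to 0.407 CPM by library, on library sizes scaled by TMM). The lowest member count was 52, for Grm8 in a breast library. The tissue label was met by pan-neuronal genes, of which 15 of 16 passed the filter (Tubb3 did not), at a summed 5176 to 11026 CPM, and by all 8 astrocyte, 8 oligodendrocyte and 8 microglia markers. Melanocyte genes (Pmel, Tyr, Tyrp1, Dct, Mlana and Slc45a2) summed to 3651 to 22827 CPM in the melanoma libraries and to at most 8.27 CPM elsewhere, and epithelial genes (Krt8, Krt18, Krt19, Epcam and Cdh1) to 309 to 1316 CPM in the lung libraries, 66.2 to 167 CPM in the breast libraries and at most 5.78 CPM in the melanoma libraries. Markers of the tumour cells were thus present in the melanoma and lung libraries. In the breast libraries 2 of the 5 epithelial genes, Krt8 and Epcam, were called higher than in melanoma, and 1 of the 5 leaned the other way. In 3 libraries, melanoma replicate 3 and breast replicates 18 and 19, long transcripts were under-represented: the slope of log2 CPM on log2 transcript length was -0.28 to -0.22, against -0.12 to 0.19 in the other 15. Results are therefore also given without these 3. Of them, breast replicates 18 and 19 also had the smallest library totals, 7366250 and 7432159 counts, against 10669355 or more in all other libraries.

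**Figure D1:**
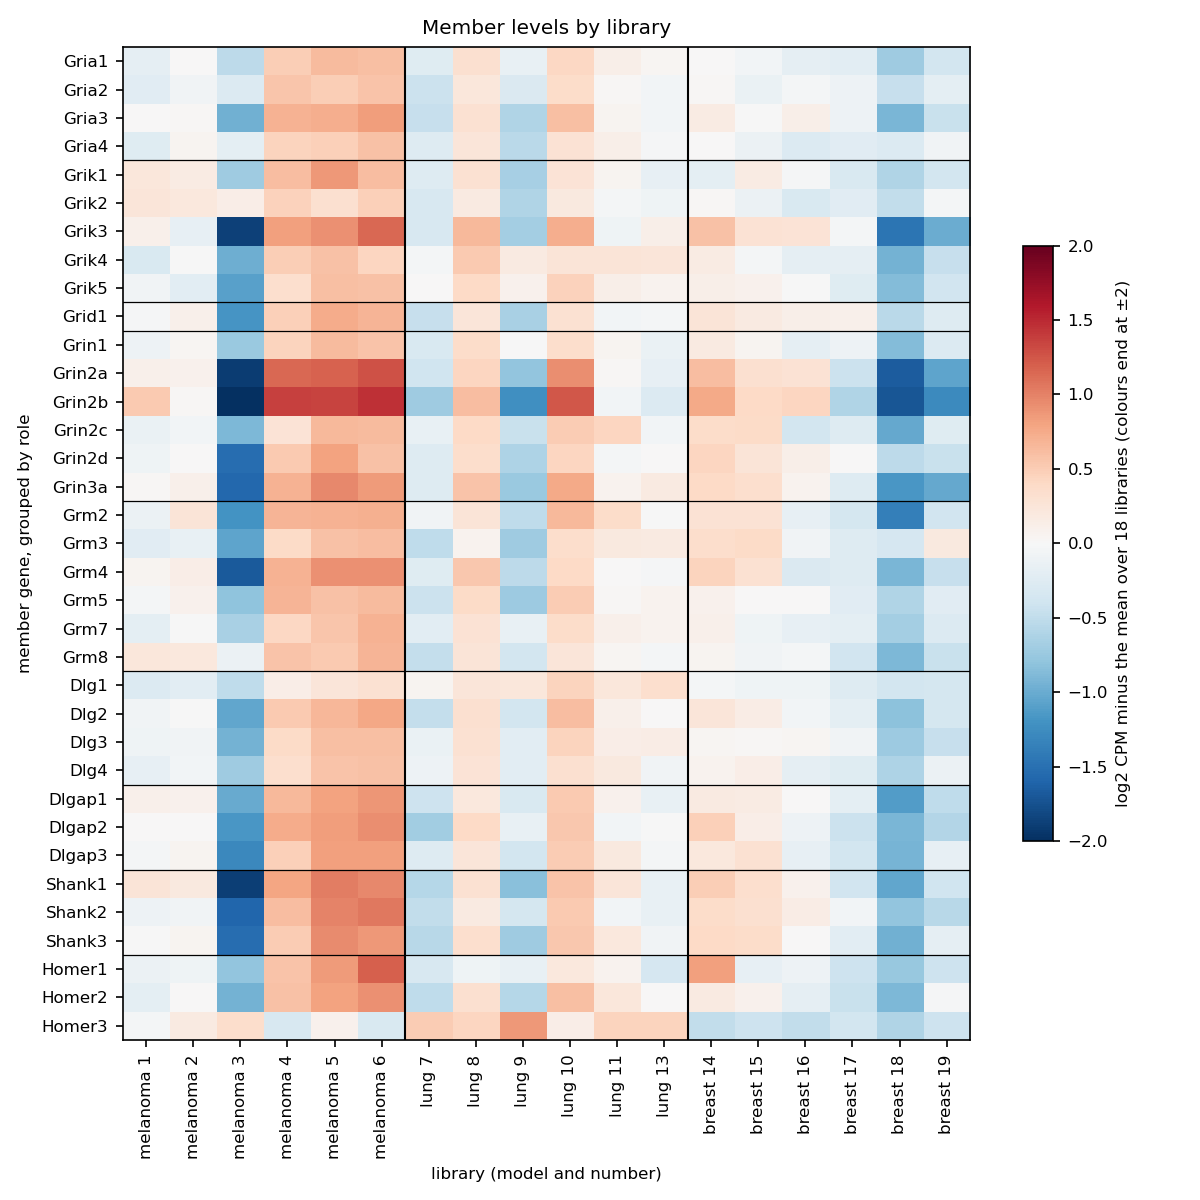
Levels of the 35 members (rows, grouped by role) in the 18 libraries (columns, by model), as log2 CPM minus the gene's mean over all libraries. Nearly all rows turn blue in melanoma 3 and breast 18 and red in melanoma 4, 5 and 6, while the bottom row, Homer3, follows the model instead.

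Among AMPA receptor subunits, none of 4 was called in any contrast. Gria1 and Gria4 had an unadjusted p under 0.05 in melanoma against breast, and the DESeq2 test called these 2, while limma voom called 0. Gria2, whose edited subunit keeps calcium out of the channel, read 278 to 496 CPM in melanoma (median 396), 249 to 435 in lung (median 334) and 243 to 340.2 in breast (median 310.1). Gria1, the subunit inserted in many forms of potentiation, read 206 to 463 CPM in melanoma (median 360.5), 251 to 397 in lung (median 315) and 181 to 299.6 in breast (median 260.1). Gria3 read 65.3 to 227 CPM in melanoma, 83.5 to 194 in lung and 67.7 to 142 in breast. The models overlapped for these genes, and the melanoma libraries spanned the widest range. For melanoma against breast, the log2 fold change of Gria1 was 0.47 ± 0.19 (SE, edgeR adjusted p = 0.0715), and those of the 4 subunits lay between 0.36 and 0.49. The log2 ratio of Gria1 to Gria2, in which the library's scaling cancels, was -0.07 ± 0.05 in lung, -0.17 ± 0.14 in melanoma and -0.28 ± 0.12 in breast (SD, n = 6 each). The difference of -0.21 between breast and lung gave p = 0.00433 in an exact two-sided permutation test over 924 splits and an adjusted p of 0.0519 over the 12 ratio tests, and so was not called. It was called without breast replicate 15 (-0.24, adjusted p = 0.0260) and without breast replicate 16 (-0.20, adjusted p = 0.0390). Without the 3 libraries poor in long transcripts it was smaller, at -0.15, and was not called (exact permutation adjusted p = 0.0571). The ratio was -0.43 in melanoma replicate 3, -0.42 in breast replicate 18 and -0.35 in breast replicate 19, the lowest of the 18 libraries.

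Kainate receptors are assembled from low-affinity subunits (Grik1 to Grik3) and the high-affinity partners Grik4 and Grik5. Grik2 was the member of this group that differed. It read 51.9 to 65.5 CPM in melanoma (median 57.4), 31.1 to 54.4 in lung (median 45.1) and 33.6 to 47.8 in breast (median 42.1), so that every melanoma library was above every breast library, while the melanoma and lung libraries overlapped. The log2 fold change was 0.49 ± 0.13 for melanoma against breast (SE, edgeR adjusted p = 0.00678) and 0.40 ± 0.13 for melanoma against lung (adjusted p = 0.0319). Between breast and lung it was -0.10 ± 0.13 (adjusted p = 0.679). With the trend on transcript length removed, neither call of Grik2 was kept, at 0.33 (adjusted p = 0.157) and 0.34 (adjusted p = 0.176) against breast and lung. The call against lung was also lost when the 12 libraries compared were fitted alone (adjusted p = 0.0585), and without melanoma replicate 6 or lung replicates 7, 9 or 13, each alone, with adjusted p of up to 0.0818.

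Grik5 had the highest level per length of the kainate subunits, 143 ± 39.3 CPM per kilobase of the median transcript (SD over 18 libraries), and read 56.7 to 183 CPM in melanoma, 121 to 166 in lung and 66.1 to 132 in breast. Its lowest values in melanoma and breast were those of melanoma replicate 3 and breast replicate 18. Grik1, Grik3, Grik4 and Grik5 were not called in any contrast, although the DESeq2 test called Grik1 in melanoma against breast. Grik3 spanned 8.09-fold from its lowest library (12.8 CPM, melanoma replicate 3) to its highest (103 CPM, melanoma replicate 6). The delta receptor gene Grid1 read 20.3 to 76.8 CPM in melanoma, 29.2 to 56.8 in lung and 31.7 to 55.0 in breast, and was not called either.

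NMDA receptors pair the obligatory subunit Grin1 with Grin2 subunits, of which Grin2b prevails early in development and Grin2a later. None of the 6 genes was called in any contrast, and 0 had an unadjusted p under 0.05 or were called by the DESeq2 test or limma voom. Grin2b read 17.1 to 235 CPM in melanoma (median 169.6), 36.3 to 202 in lung (median 76.6) and 26.0 to 145 in breast (median 84.6). Its log2 fold change was the largest of the members in melanoma against breast, 0.87 ± 0.54 (SE, edgeR adjusted p = 0.242), but its libraries of 1 model differed by far more than the models did. Grin2c, a subunit best known from cerebellum, read 18.96 to 55.2 CPM in melanoma, 26.04 to 50.2 in lung and 17.3 to 46.1 in breast. Grin2a read 13.01 to 117 CPM in melanoma, 28.01 to 92.2 in lung and 15.4 to 74.3 in breast, with a log2 fold change of 0.74 ± 0.45 for melanoma against breast (adjusted p = 0.230).

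Both genes had their lowest values in melanoma replicate 3, and both are among the longest members, with longest transcripts of 24060 bases (Grin2b) and 14634 bases (Grin2a). The ranges over all 18 libraries were 13.7-fold for Grin2b and 8.99-fold for Grin2a, the widest of the members. The log2 ratio of Grin2a to Grin2b was -0.90 ± 0.29 in melanoma, -0.74 ± 0.29 in lung and -0.80 ± 0.16 in breast (SD, n = 6 each), and the differences of -0.16, -0.06 and -0.10 in the 3 contrasts had adjusted p of 0.431 to 0.675 in the exact permutation test. The ratio was -0.39 in melanoma replicate 3, -0.37 in lung replicate 9 and -0.75 in breast replicate 18, each the lowest library of its model for both genes. Grin1 varied less, from 157 to 446 CPM (2.84-fold over the 18 libraries), and had the highest level of all members per kilobase of the longest transcript, 69.7. With the median transcript as the length, Grin2b ranked above it at 155 CPM per kilobase, since the annotation lists many short Grin2b transcripts (median 703 bases).

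The metabotropic receptors comprise Grm5, a group I receptor that signals through phospholipase C and binds HOMER proteins, and Grm2, Grm3, Grm4, Grm7 and Grm8, which are coupled to inhibitory G proteins. Grm8, a presynaptic autoreceptor, read 12.5 to 21.8 CPM in melanoma (median 17.6), 9.73 to 16.2 in lung (median 13.6) and 7.27 to 14.1 in breast (median 11.6). All melanoma libraries but replicate 3 were above all breast libraries. Grm8 was higher in melanoma than in breast by 0.63 ± 0.18 on the log2 scale (edgeR adjusted p = 0.0116), and its log2 fold change of 0.40 ± 0.18 against lung was not called (adjusted p = 0.121), although the DESeq2 test called it. It was called in melanoma against breast in all 12 alternative analyses with all or most libraries, and in all 18 that left out 1 library.

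Grm5 read 66.1 to 185 CPM in melanoma (median 148), 69.6 to 163 in lung (median 118) and 75.9 to 122 in breast (median 107). Grm3 read 23.0 to 73.4 CPM in melanoma (median 52.9), 29.1 to 60.8 in lung (median 52.2) and 37.8 to 62.5 in breast (median 50.3), the most even medians of the genes given so far. Its log2 fold changes were 0.15, 0.10 and 0.06 for melanoma over lung, breast over lung and melanoma over breast, with SE of 0.25 each. The log2 ratio of Grm5 to Grm3 was 1.43 ± 0.12 in melanoma, 1.30 ± 0.18 in lung and 1.06 ± 0.21 in breast (SD, n = 6 each). The difference of 0.37 between melanoma and breast had p = 0.0130 in the exact permutation test and an adjusted p of 0.0693, which was not called. Without breast replicate 16 it was 0.43 and was called (adjusted p = 0.0390). Without the 3 libraries poor in long transcripts it was smaller, at 0.29, and was not called (exact permutation adjusted p = 0.190).

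**Figure D2:**
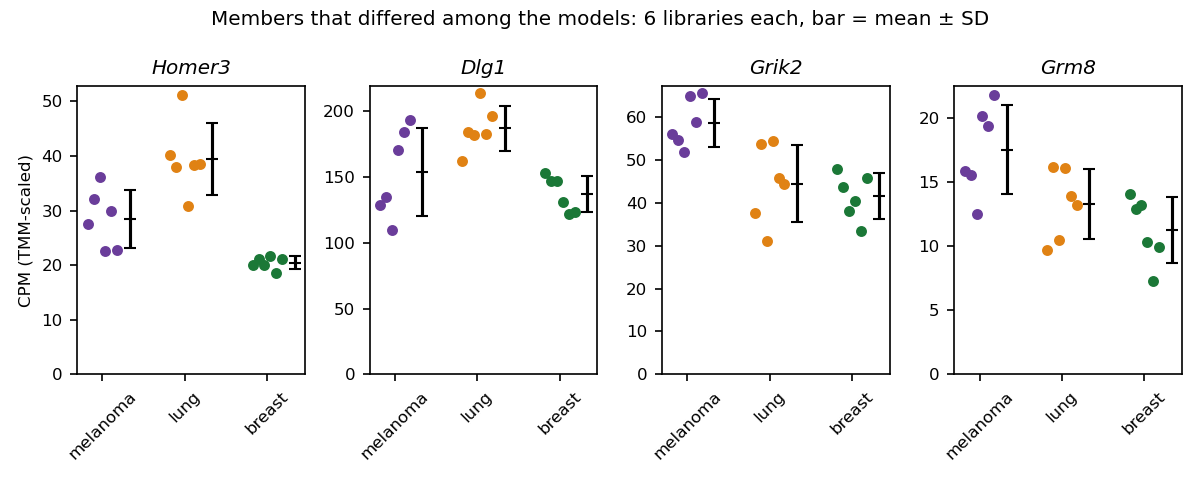
CPM of the 4 members that differed among the models, 1 point per library and a bar for the mean ± SD of 6 libraries. For Homer3 the breast libraries sit between 18.6 and 21.8 CPM, under every library of the other models, and for Dlg1 they sit under every lung library.

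Of the PSD-95 family, Dlg1 (SAP97), a scaffold found in neurons and also in epithelia and other cells, read 162 to 214 CPM in lung (median 183), 122 to 153 in breast (median 139) and 109.9 to 193 in melanoma (median 153). Every lung library was above every breast library. Dlg1 was lower in breast than in lung, with a log2 fold change of -0.45 ± 0.13 (edgeR adjusted p = 0.0212), and its value of -0.28 ± 0.13 for melanoma against lung was not called (adjusted p = 0.138). The breast call held in all 12 alternative analyses, at -0.49 to -0.30, and was lost without lung replicate 10 (adjusted p = 0.0526). Dlg1 also varied least of all members, 1.95-fold from its lowest to its highest library.

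Dlg4 (PSD-95), the most abundant scaffold of excitatory synapses, had the highest level per kilobase of median transcript of all members, 411 ± 98.5 CPM (SD over 18 libraries), and the second of the ranks by longest transcript, 55.9. It read 210.5 to 517 CPM in melanoma (median 381), 298 to 428 in lung (median 360.0) and 224 to 375 in breast (median 310.0), and none of its contrasts was called, nor any of Dlg2 and Dlg3. The log2 ratio of Dlg4 to Dlg1 was 1.29 ± 0.19 in melanoma, 0.95 ± 0.19 in lung and 1.17 ± 0.19 in breast (SD, n = 6 each). The difference of 0.33 between melanoma and lung had p = 0.0173 in the exact permutation test (adjusted p = 0.0693). Without melanoma replicate 3 the ratios of these models no longer overlapped, and the difference of 0.40 was called (exact permutation adjusted p = 0.0260). Without all 3 libraries poor in long transcripts it was the same 0.40 with an adjusted p of 0.0519.

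The SAPAP genes Dlgap1, Dlgap2 and Dlgap3 and the SHANK genes Shank1, Shank2 and Shank3, which link the PSD-95 layer to the deeper layer of the density, had no call in any contrast, with 0 at an unadjusted p under 0.05 and 0 called by the DESeq2 test or limma voom. Dlgap1 read 106 to 391 CPM in melanoma, 159.9 to 307 in lung and 98.6 to 239.9 in breast. Shank3, a gene whose loss causes a form of autism in humans, read 53.5 to 296 CPM in melanoma, 93.2 to 224 in lung and 78.6 to 202 in breast. The low ends in melanoma and breast were again melanoma replicate 3 and breast replicate 18. The SHANK genes had the least difference of any group between breast and lung, with log2 fold changes of -0.07 ± 0.37 (Shank1), -0.01 ± 0.33 (Shank2) and -0.06 ± 0.33 (Shank3), and edgeR adjusted p of 0.922 to 0.984. Shank1 spanned 7.50-fold, Shank2 6.19-fold and Shank3 5.53-fold over the libraries.

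Homer3 stood apart from the other scaffolds. This HOMER family member, best known from cerebellar Purkinje cells, read 30.8 to 51.2 CPM in lung (median 38.5), 22.6 to 36.1 in melanoma (median 28.7) and 18.6 to 21.8 in breast (median 20.6). The breast libraries lay below all 12 others, and the melanoma and lung libraries overlapped. The mean was 39.5 ± 6.59 CPM in lung, 28.5 ± 5.30 in melanoma and 20.5 ± 1.15 in breast (SD, n = 6 each). Homer3 was lower in breast than in lung by -0.95 ± 0.13 on the log2 scale (SE, edgeR adjusted p = 2.36e-05), lower in melanoma than in lung by -0.47 ± 0.13 (adjusted p = 0.0105), and higher in melanoma than in breast by 0.48 ± 0.13 (adjusted p = 0.00839). The calls involving breast held in all 12 alternative analyses and with any 1 library left out, and the call between melanoma and lung was lost without melanoma replicate 4 (adjusted p = 0.0971) and without the filter on low counts (adjusted p = 0.0519).

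Homer3 was also the shortest member, with a longest transcript of 2608 bases, and did not follow the others across libraries. Within models its log2 level correlated with those of the other members at a mean r of -0.60, where the mean r of each other member lay between 0.65 and 0.90 (6 libraries a model, a description of genes that share libraries). In the 6 lung libraries Homer3 was lowest and epithelial genes were lowest in replicate 10 (30.8 CPM and a summed 309 CPM), and both were highest in replicate 9 (51.2 CPM and 1316 CPM). Across these 6, Homer3 and the log2 sum of epithelial genes had r = 0.89 (exact permutation p = 0.0264, adjusted p = 0.0365 over 18 relations) and Spearman's rho = 0.77 (p = 0.103, adjusted p = 0.109), a relation chosen after the values were seen. Without replicates 9 and 10 r was 0.60, so that it rests on these libraries. Between breast and melanoma, Homer3 was lower in breast, where the epithelial sum was higher. That sum was at most 5.78 CPM in melanoma, where the tumour markers are melanocyte genes. It thus does not compare tumour content between these 2 models. Within melanoma, Homer3 and the log2 melanocyte sum had r = 0.69 (exact permutation adjusted p = 0.143). The part of tumour RNA in the Homer3 levels was not tested.

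Homer3 shares 874 exon bases with Ddx49, a gene on the opposite strand, in the GENCODE M21 annotation. The libraries kept strand, but the strand setting of the counting is not given in the sources used here. Ddx49 read 51.2 ± 6.88 CPM in lung, 51.8 ± 15.7 in melanoma and 56.9 ± 7.02 in breast (SD, n = 6 each), with log2 fold changes of 0.02, 0.15 and -0.13 for melanoma over lung, breast over lung and melanoma over breast, none called (edgeR adjusted p of 0.559 to 0.959). In all, 18 of the 35 members share exon bases with another annotated gene, 11 of them with a gene on the opposite strand. Among cerebellar markers, Gabra6, Pcp2, Cbln3 and Barhl1 did not pass the filter, and edgeR called none of the 3 that did in any contrast, where Zic2 had an unadjusted p under 0.05 in melanoma against lung and 1 gene was called there by the DESeq2 test and by limma voom.

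Homer1, whose short activity-induced form and long scaffold forms share exons and were counted as 1 gene, read 55.6 to 218 CPM in melanoma, 76.0 to 110.2 in lung and 56.5 to 169.6 in breast, where replicate 14 was the highest and the next was at 89.1 CPM. Homer1 and Homer2 were not called in any contrast. For Homer1 the log2 fold changes were 0.51 ± 0.29, 0.02 ± 0.29 and 0.49 ± 0.29 for melanoma over lung, breast over lung and melanoma over breast (SE, edgeR adjusted p = 0.252, 0.980 and 0.217).

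**Figure D3:**
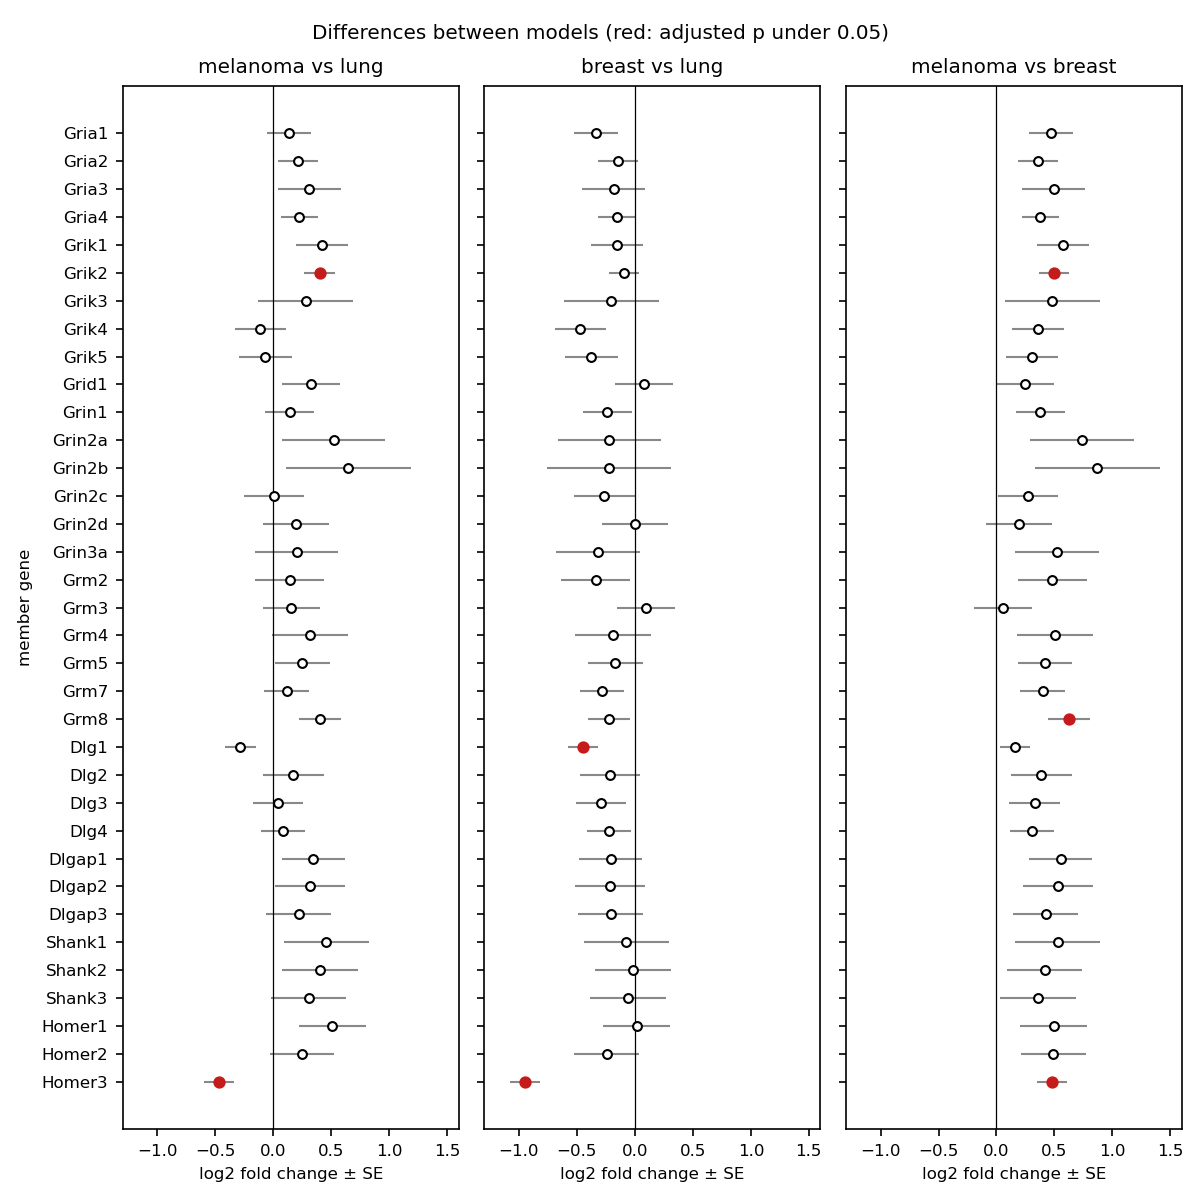
Log2 fold change ± SE of each member in the 3 contrasts, with called members (adjusted p under 0.05) in red and the others open. In melanoma against breast all 35 points lie right of 0 but 3 are called, and Homer3 is the leftmost point in both contrasts against lung.

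Set side by side, the contrasts had few calls and a shared lean. In melanoma against lung 2 of 35 members were called, 1 higher (Grik2) and 1 lower (Homer3), or 5.71%, where 23.2% of all genes were called, 8.51% higher and 14.7% lower. In breast against lung 2 were called, both lower (Homer3 and Dlg1), again 5.71%, where 18.3% of all genes were, 11.2% higher and 7.16% lower. In melanoma against breast 3 were called, all higher (Grik2, Homer3 and Grm8), or 8.57%, where 28.9% of all genes were, 9.76% higher and 19.2% lower. At an unadjusted p under 0.05 there were 4, 3 and 6 members in these contrasts. The DESeq2 test called 3, 2 and 6 members, where it called 27%, 21.3% and 33.2% of all genes. Limma voom called 2, 2 and 3 members, where it called 23.2%, 18.9% and 29.4% of all genes. The contrasts share libraries and are not independent of each other.

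The log2 fold changes of the members were positive in 31, 4 and 35 of 35 genes, with medians of 0.22, -0.21 and 0.42, where the medians of all genes were 0.02, -0.02 and 0.04. By groups, the median for melanoma against breast ran from 0.25 (Grid1) and 0.32 (PSD-95 family) to 0.53 (SAPAP). The members were thus a little higher in melanoma and lower in breast on average, but the lean was small beside the spread between libraries and most genes did not pass the test. Members whose CPM did not overlap between models numbered 0 in melanoma against lung, 2 in breast against lung (Dlg1 and Homer3) and 2 in melanoma against breast (Grik2 and Homer3), where 14.3%, 14.9% and 17.1% of all genes did not overlap. In tissue of many cell types, fewer cells of a type and less RNA per cell cannot be told apart.

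The spread was shared by the members. The members' summed level was 2082 to 6172 CPM in melanoma (median 4554), 3010 to 5168 in lung (median 3833) and 2181 to 4281 in breast (median 3385), and was lowest in melanoma replicate 3 and breast replicate 18. Against the other melanoma libraries, 34 of 35 members were lower in melanoma replicate 3, by a median of -1.34 on the log2 scale, Homer3 being the exception. All 35 were lower in breast replicate 18 (median -0.86) and 30 in breast replicate 19 (median -0.36), against the breast libraries 14 to 17. The longer a member's transcript, the lower it tended to be in these libraries, with r of -0.54 to -0.55 between the difference and the log2 transcript length across 35 genes, which are not independent replicates. For the fold changes between models r with log2 length across the members was positive: 0.56 in melanoma against lung, 0.25 in breast against lung and 0.50 in melanoma against breast.

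Across the 18 libraries the members' mean log2 CPM rose with the slope on transcript length, with r = 0.95 and rho = 0.94 (permutation adjusted p = 6e-05 and 9e-05, resting on the smallest p that 100000 permutations can give), and r = 0.91 without melanoma replicate 3 and breast replicate 18. Within models, r was 0.98 in melanoma, 0.94 in lung and 0.93 in breast (exact permutation adjusted p = 0.0075, 0.0250 and 0.00357), rho was 0.94, 0.89 and 1.0 (adjusted p = 0.03, 0.0462 and 0.00625), and r without the 2 farthest libraries was 0.97, 0.79 and 0.94. With the mean of 15 pan-neuronal genes the relation was as close, r = 0.97 over all libraries and 0.99, 0.98 and 0.94 within melanoma, lung and breast (exact permutation adjusted p = 0.00357, 0.00625 and 0.0227). Over all libraries rho was 0.95 and r without the 2 farthest was also 0.95. In melanoma and in lung rho was 1.0, but in breast it was 0.77 (adjusted p = 0.109) and r came to 0.67 without replicates 14 and 18. The slope and the pan-neuronal mean were themselves related (r = 0.88 and rho = 0.85 over the 18 libraries, r = 0.78 without the 2 farthest), and their parts in the members' levels were not tested apart from each other.

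**Figure D4:**
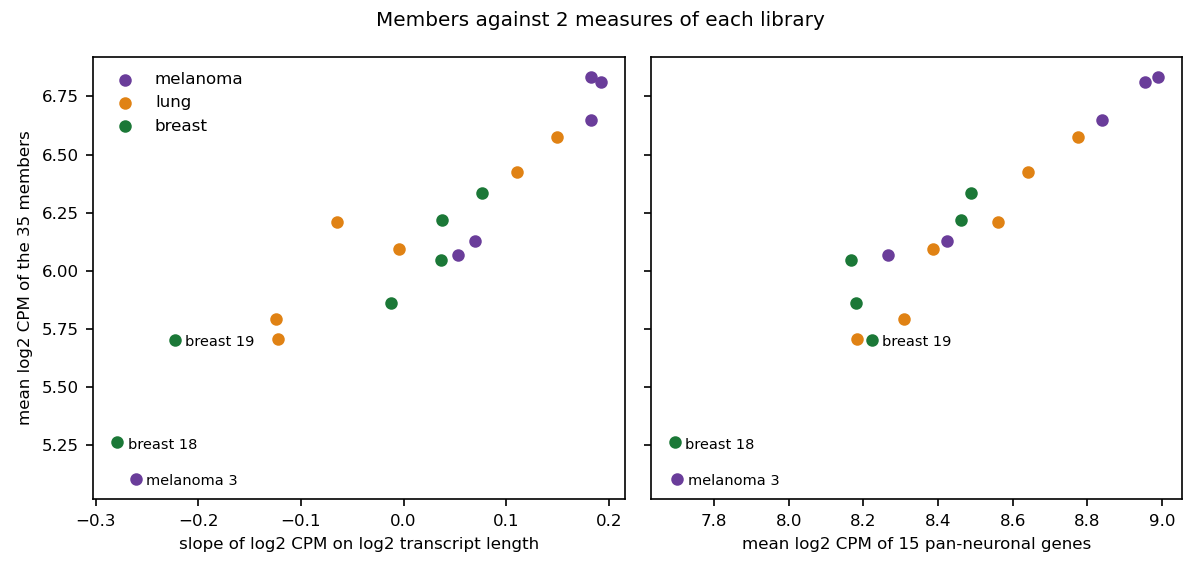
Mean log2 CPM of the 35 members in each library against the library's slope of log2 CPM on log2 transcript length (left) and against the mean log2 CPM of 15 pan-neuronal genes (right), coloured by model. The points of the 3 models rise together in each panel, from melanoma 3 and breast 18 at the lower left to melanoma 5 and 6 at the upper right. They do not share 1 exact line: in the left panel lung 11 lies above melanoma 1 and 2 at a lower slope.

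Tumour genes moved against the members within the melanoma model. The libraries with the largest melanocyte sums, melanoma replicates 3, 1 and 2 (22827, 14824 and 13339 CPM), had the lowest summed member levels (2082, 3560 and 3715 CPM), and those with the smallest sums, replicates 4, 5 and 6 (7047, 4523 and 3651 CPM), the highest (5393, 6023 and 6172 CPM). Over the 6 libraries the members' mean had r = -0.93 and rho = -1.0 with the log2 melanocyte sum (exact permutation adjusted p = 0.00357 and 0.00625), and r = -0.99 without replicates 3 and 6. For Dlg1 alone r was -0.99 and rho -1.0 (adjusted p = 0.00357 and 0.00625), and for Homer3 r was 0.69 and rho 0.60 (adjusted p = 0.143 and 0.242). In the lung libraries the members' mean and the epithelial sum had r = -0.80 and rho = -0.77 (adjusted p = 0.0574 and 0.109), and r = -0.34 without replicates 9 and 10. For Dlg1 and the epithelial sum r was -0.84 and rho -0.89 (adjusted p = 0.055 and 0.0462), and r was -0.89 without these 2. These relations were chosen after the values were seen, and the part of tumour content in the members' levels was not tested.

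In the contrasts with melanoma, astrocyte, microglia and oligodendrocyte markers did not lean the way of the neuronal ones. Of 8 astrocyte markers 4 were lower in melanoma than in lung and 3 lower in melanoma than in breast, led by Gfap in both. Of 8 microglia markers 7 and 6 were lower, and of 8 oligodendrocyte markers 1 in each contrast, Cldn11. Of all genes, 14.7% and 19.2% were called lower in these contrasts. The members had positive median fold changes in both. The summed astrocyte markers ran from 1578 to 2084 CPM in melanoma, 3363 to 4975 in lung and 3135 to 4036 in breast, and the microglia markers from 360.4 to 542, 1082 to 1837 and 1120.1 to 1651 CPM. In breast against lung no marker of these 3 lists was called, and the 8 microglia markers had a median log2 fold change of -0.23, beside -0.21 for the members. Whether the glial difference bears on the members' levels was not tested.

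Leaving out melanoma replicate 3 alone changed the count in melanoma against breast from 3 to 30 of 35 members, all 30 higher in melanoma and 85.7% of the members, where 46.6% of all genes were then called. In the test of any difference the count went from 4 to 21, or 60.0%, where 50.3% of genes were called. That analysis kept breast replicates 18 and 19, the other libraries poor in long transcripts. Without all 3 libraries the count in melanoma against breast was 8 of 35 (22.9%, with 34.2% of genes called), all higher: Gria1, Gria4, Grik1, Grik2, Grm7, Grm8, Dlgap1 and Homer3. In melanoma against lung it was then 9 (25.7%, with 33.6% of genes called), of which Grik1, Grik2, Grid1, Grm8, Dlgap1, Shank1, Shank2 and Homer1 were higher and Homer3 lower, and in breast against lung it stayed at 2, Dlg1 and Homer3 (5.71%, with 25% of genes called). The members' median log2 fold changes were then 0.40, -0.12 and 0.49 for melanoma over lung, breast over lung and melanoma over breast.

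With the trend on transcript length removed from each library, the medians came to 0.13, -0.18 and 0.29, and 3, 3 and 5 members were called, where 26.9%, 22.1% and 34.6% of all genes were. Grm8, Dlg1 and Homer3 were then called between melanoma and lung, Grik4, Dlg1 and Homer3 between breast and lung (all lower in breast), and Gria1, Grik1, Grm8, Dlgap1 and Homer3 between melanoma and breast (all higher in melanoma). The log2 fold change of Grin2b for melanoma against breast came to 0.36 ± 0.22 (SE) in place of 0.87.

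At an equal pan-neuronal mean, entered as a covariate, the medians of the members were nearer 0 or changed sign, and came to 0.07 in melanoma against lung, 0.17 in breast against lung and -0.08 in melanoma against breast. The calls were then 7, 9 and 8 of 35 members, where 37.1%, 29.2% and 39.7% of all genes were called. Homer3 kept its 3 calls, with log2 fold changes of -0.46 ± 0.10, -1.03 ± 0.11 and 0.58 ± 0.11 (SE, edgeR adjusted p of at most 0.00126), Grik2 and Grm8 were higher in melanoma than in both others, and Dlg1 was lower than lung in both others. The SHANK genes, Grm3, Grid1, Grin2d and Dlgap3 were higher in breast than in lung with this covariate, at 0.44 for Shank3 (adjusted p = 0.00174) and 0.45 for Grm3 (adjusted p = 0.00401), while without it Shank3 had -0.06 and Grm3 0.10, neither called. In melanoma against breast Grm3 then had -0.43 (adjusted p = 0.00430) and Shank3 -0.34 (adjusted p = 0.00806), against 0.06 and 0.36 without it. Such values compare a member with the other neuronal genes of its library, not its share of all RNA.

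**Figure D5:**
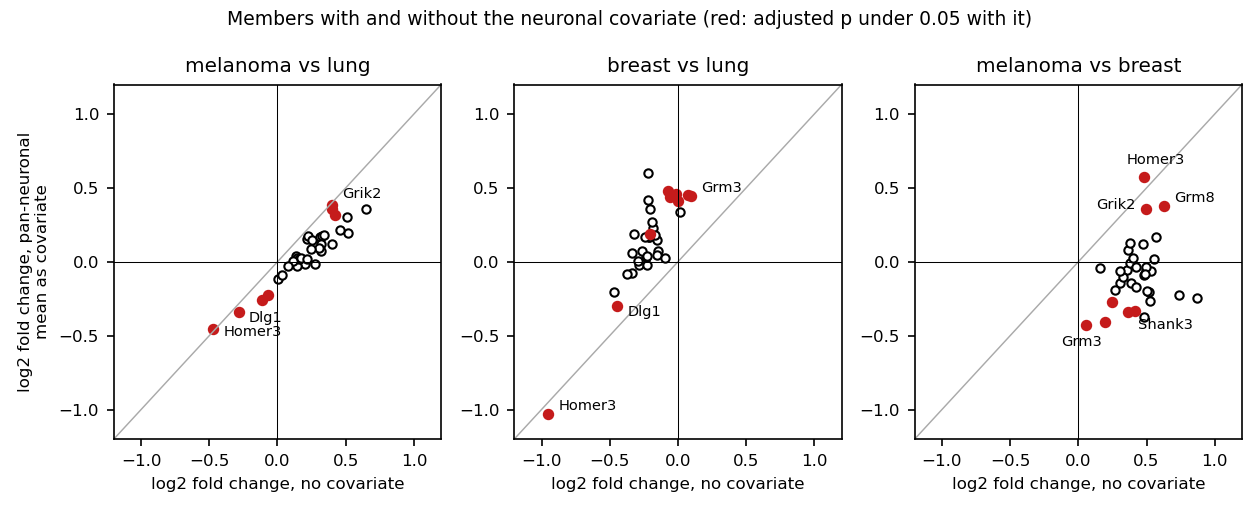
Log2 fold change of each member without (x axis) and with (y axis) the pan-neuronal mean as a covariate, in the 3 contrasts; the grey line marks equality and red points have an adjusted p under 0.05 with the covariate. Homer3 lies near the line in all panels, while most points of melanoma against breast drop from right of 0 to around 0 on the y axis.

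Most lists of genes that work with these receptors had few calls as well. Of all genes, 23.2% were called in melanoma against lung, 18.3% in breast against lung and 28.9% in melanoma against breast. Of 18 tested AMPA receptor auxiliary and trafficking genes, none was called in melanoma against lung (0 at an unadjusted p under 0.05, 0 by the DESeq2 test or limma voom) and 1, Cnih3, in the other contrasts. Cnih3, a cornichon protein that slows AMPA receptor closing, was lower in breast than in lung (log2 fold change -0.57 ± 0.15, edgeR adjusted p = 0.0107) and higher in melanoma than in breast (0.41 ± 0.15, adjusted p = 0.0486). Limma voom did not call the second of these. None of 5 kainate and delta receptor partners was called, although 3 (Neto2, Cbln2 and Cbln4) had an unadjusted p under 0.05 in melanoma against breast, where the DESeq2 test called 2. Of 24 genes of postsynaptic signalling and adhesion, Cttn, an actin regulator of dendritic spines and of many other cells, was lower in melanoma than in lung (-0.49 ± 0.11, adjusted p = 0.00169) and Abi2 was higher in melanoma than in breast (0.54 ± 0.15, adjusted p = 0.0105). The medians of these 24 were 0.16, -0.24 and 0.42 for melanoma over lung, breast over lung and melanoma over breast, close to those of the members. The DESeq2 test called 1, 1 and 4 of them, and limma voom 1, 0 and 1.

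Of these related lists, glutamate handling held the largest single difference. Slc17a8, the vesicular glutamate transporter VGLUT3, read a mean of 14.4 CPM in lung, 4.04 in melanoma and 3.05 in breast, and was lower than in lung in both (log2 fold changes -1.83 ± 0.25 and -2.23 ± 0.26, edgeR adjusted p = 1.53e-05 and 3.40e-06). Slc17a7, the main cortical vesicular glutamate transporter VGLUT1, was lower in breast than in lung (-0.62 ± 0.20, adjusted p = 0.0356). Slc38a1, a glutamine transporter, was higher in melanoma than in lung (0.89 ± 0.19, adjusted p = 0.00116) and than in breast (0.72 ± 0.18, adjusted p = 0.00540), and Slc1a3, the astrocyte glutamate transporter GLAST, was lower in melanoma than in breast (-0.33 ± 0.12, adjusted p = 0.0362). The other 7 of 11 tested genes were not called in any contrast. In breast against lung 2 of the 11 were called, both lower, where 18.3% of all genes were called. In melanoma against lung and melanoma against breast 1 was higher and 1 lower, where 23.2% and 28.9% were called.

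The inhibitory synapse genes leaned as the excitatory ones did. Of 21, none was called against lung, where 1 gene in each contrast had an unadjusted p under 0.05 and was called by the DESeq2 test (Gphn for melanoma, Gabra5 for breast), and 1, Gabra5, a GABA receptor subunit, was higher in melanoma than in breast (log2 fold change 0.48 ± 0.14, edgeR adjusted p = 0.0125), with medians of 0.16, -0.20 and 0.41 for melanoma over lung, breast over lung and melanoma over breast. The 15 pan-neuronal genes had medians of 0.13, -0.27 and 0.42, and edgeR called Snap25 alone, higher in melanoma than in breast (0.39 ± 0.13, adjusted p = 0.0325). Of these 15, the DESeq2 test called 4 in melanoma against breast and 1 in breast against lung, and limma voom 1 and 0. Cortical markers had medians of 0.12, -0.29 and 0.47 and striatal markers -0.10, -0.19 and 0.11. The part of brain region in these differences was not tested.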

How the data were processed

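Poly(A)+ RNA was sequenced from 18 brains with directional libraries (NEBNext Ultra II Directional), per the labels' protocols. Per the submitters' processing notes, bcl2fastq was used and GRCm39 is the build. Which aligner, counter, annotation and strand setting were used is not given in the sources used here. Per sample, the authors deposited raw counts per gene and a table of CPM on an adjusted library size. Of the 16925 rows of deposited CPM, 15366 were matched to the counts by symbol. Dividing by the value of 1 read gave whole reads for 100% of the values in these rows (within 0.01). Of these reads 99.8% equalled the counts, and for the members 100% did.

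Symbols and transcript lengths came from GENCODE M21 (GRCm38), matched by gene ID for 52083 of 55416 IDs, so no coordinates of the files' build are given. Counts were fitted with edgeR 4.0.16 in R 4.3.3 (robust quasi-likelihood, TMM, filterByExpr, 1 coefficient per model over 18 libraries), adjusted by Benjamini-Hochberg over 17174 genes and called under 0.05. Ratios of members (1 count added to each gene) were compared by exact two-sided permutation over 924 splits (smallest p 0.00216), adjusted over 12 tests. P-values measure the spread between brains of 1 tumour line. No 2 libraries of a model agreed within sampling noise (chi-square per degree of freedom of at least 2.82).

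In simulations of the 17174 genes with 200 changed, 11.0%, 2.50% and 11.0% were found at 1.5-fold and 58.5%, 60.5% and 58.5% at 2-fold, for melanoma over lung, breast over lung and melanoma over breast, with at most 6 false calls, and 0 calls where none was changed. A far smaller share of genes was changed there than was called in the data, so these rates do not carry over to the tests here. Alternatives were other scalings, filters and tests (DESeq2 1.42.0, limma voom 3.58.1), the length trend removed, a pan-neuronal covariate, 12 libraries only, and libraries left out. The use of the recovered reads was chosen after seeing the data.

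All members are named. Values by model are given for called members, for the member highest per length in each group and for the genes of the 4 ratios, and at most 3 called genes of each related list are named per contrast. Grin1, Grik3, the SHANK genes, Homer1 and Ddx49 were added or enlarged upon after their values were seen. Members and lists were chosen with earlier results of these data known.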

Additional observations from a re-analysis of the deposited data

Results flagged for a closer look

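In 105 groups of 6 libraries (35 members in 3 models), 4 values lay far from the others of their group on the log2 CPM scale by Dixon's test at the 95% level. Chance flags about 1 group in 20 where groups are independent. The members share libraries and moved together, so that rate cannot tell whether 4 flags are more than chance gives. All 4 were values of melanoma replicate 3, each the lowest of its model. It read 13.01 CPM for Grin2a (51.5 to 117 in the other 5 libraries), 10.2 CPM for Grin3a (30.9 to 59.4), 7.21 CPM for Grm4 (23.9 to 43.6) and 40.6 CPM for Shank1 (172 to 304). The same library had a slope of log2 CPM on log2 transcript length of -0.26 and the highest melanocyte sum (22827 CPM). Their part in these values was not tested.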

How the results depend on the processing

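The members called in melanoma against breast numbered 3, where 28.9% of all genes were called. They numbered 6 with DESeq2 size factors (29.9% of genes), 6 with the DESeq2 test (33.2%) and 5 with upper-quartile scaling (30%). With reads recovered from the deposited CPM (chosen after seeing the data) they numbered 5 (31.6%), and with the length trend removed 5 (34.6%). Without the 3 libraries poor in long transcripts they numbered 8 (34.2%), and with the pan-neuronal covariate 8 (39.7%). In melanoma against lung they numbered 2 (23.2% of genes), 1 with no filter on low counts (13.5%) and 1 with only the 12 libraries compared (20.6%). They numbered 9 there without the 3 libraries (33.6%) and 7 with the covariate (37.1%). With the covariate 9 were called in breast against lung (29.2% of genes) and 11 in the test of any difference (52.4%). Leaving out 1 library gave 3 to 21 in the test of any difference, 1 to 4 in melanoma against lung, 1 to 3 in breast against lung and 3 to 30 in melanoma against breast, the highest values without melanoma replicate 3. Without that library 50.3%, 26.7%, 23.7% and 46.6% of all genes were called, in the same order. With the covariate, positive log2 fold changes went from 4 to 28 of 35 members in breast against lung and from 35 to 9 in melanoma against breast. Among members called with it, the direction reversed in breast against lung for Dlgap3 (0.19), Shank1 (0.48), Shank2 (0.46) and Shank3 (0.44), and in melanoma against breast for Grid1 (-0.27), Grin2d (-0.41), Grm3 (-0.43), Shank2 (-0.33) and Shank3 (-0.34); the cause was not tested beyond the covariate itself. Leaving out 1 library moved the Dlg4 to Dlg1 difference for melanoma against lung between 0.29 and 0.40, that of Gria1 to Gria2 for breast against lung between -0.24 and -0.18, and that of Grm5 to Grm3 for melanoma against breast between 0.33 and 0.43. None of these 3 was called with all libraries, and they were called without melanoma replicate 3 (Dlg4 to Dlg1), without breast replicate 15 or 16 (Gria1 to Gria2) and without breast replicate 16 (Grm5 to Grm3). Without the 3 libraries poor in long transcripts these differences were 0.40, -0.15 and 0.29, and none was called. The median level of the members per length, averaged over libraries, was 30.9 CPM per kilobase with the median transcript and 11.3 with the longest, so that the order of levels between members depends on the transcript taken. No paired analysis was possible because no library number is shared between models. Members not called are not shown to be equal. A 1.5-fold difference was mostly missed in the simulations, but those rates do not carry over to the tests here.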
